A study of Mus musculus with 4 samples.

Results

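Cytochrome c oxidase is the last enzyme of the mitochondrial respiratory chain, and its subunit VIa exists in a muscle-type form, encoded by Cox6a2, and a ubiquitous form, encoded by Cox6a1. These 2 genes and 8 further nuclear genes of the enzyme (Cox4i1, Cox5a, Cox5b, Cox6b1, Cox6c, Cox7a2, Cox7c and Cox8a) were followed in single microglia, 10 genes of 32285 in the count tables, taken by symbol. Cox6a2 was selected on its UMIs in these same libraries, which were lower without PRMT1, so its difference between genotypes is given as a description with no test. The 9 partners were taken as subunits of the same enzyme. A UMI (unique molecular identifier) stands for 1 captured RNA molecule, and levels are given as counts per 1000000 microglial UMIs of a mouse (CPM).

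The libraries came from 4 mice on a C57BL/6 background that ate 0.2% cuprizone, a copper chelator that strips myelin from the brain, for 5 wk. There were 2 PRMT1FL mice, with floxed PRMT1 alleles and labelled wild type, and 2 PRMT1Cx3cr1-KO mice (PRMT1FL/FL;Cx3cr1-CreERT), which lack the arginine methyltransferase PRMT1 in Cx3cr1-expressing cells. Per the methods, both groups received tamoxifen at 5 to 6 wk of age and the diet 2 wk later, whereas the labels give 5 to 6 wk as the age for the diet. Brain cells positive for CD11b and CD45 were sorted and each mouse gave 1 library. The Cx3cr1 driver also acts in other myeloid cells, and whether the PRMT1FL mice carried CreERT is not given in the sources used here.

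In the respiratory chain, cytochrome c hands electrons to cytochrome c oxidase, which passes them to oxygen and pumps protons across the inner membrane. The catalytic core is built from the mitochondrially encoded subunits mt-Co1, mt-Co2 and mt-Co3, and the nuclear subunits surround it and bear on its assembly, stability and regulation. Several of the nuclear subunits have tissue forms: Cox6a2 is known from heart and skeletal muscle, while Cox6a1 is the form of most other tissues.

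Both VIa genes were counted from the 3′ end of their transcripts. That end lies 294 bases after the stop codon in Cox6a2-201 and 201 bases after it in Cox6a1-201. The last 120 coding bases, up to and including the stop codon, are shown to let the reader see how far the coding ends differ. They were cut from the annotated transcripts Cox6a2-201 and Cox6a1-201 (GENCODE M21, mm10, both on the minus strand), and capitals mark the 33 positions at which they differ.
Cox6a2: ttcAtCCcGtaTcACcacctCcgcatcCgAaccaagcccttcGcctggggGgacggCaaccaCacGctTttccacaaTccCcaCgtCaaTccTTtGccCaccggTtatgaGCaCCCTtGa
Cox6a1: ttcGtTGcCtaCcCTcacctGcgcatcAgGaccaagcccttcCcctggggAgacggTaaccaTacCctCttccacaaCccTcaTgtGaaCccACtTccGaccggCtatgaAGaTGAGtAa

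The 2 stretches were identical at the other 87 positions. Over the whole coding sequences 62.6% of 294 aligned bases were identical, and the longest run that the 2 transcripts shared was 12 bases. No 31-base word of the last 400 bases of Cox6a2 occurred in the transcripts of another gene, and the same was true of Cox4i1, Cox6b1 and Cox8a. Cox5b shared 28.6% of these words with Gm11273, which held 488 UMIs beside 110546 for Cox5b. Cox6a1 (20.3%), Cox5a (17.0%), Cox6c (30.7%), Cox7a2 (2.70%) and Cox7c (40.5%) shared words with genes outside the count tables, nearly all of them annotated as pseudogenes, so their counts carry an uncertainty that Cox6a2 does not.

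Cox6a2 lies at chr7:128205435-128206387 on the minus strand of mm10 and has 3 exons. Cox6a1 lies at chr5:115345642-115348981, also on the minus strand. The transcript Cox6a2-201 encodes 97 residues and Cox6a1-201 encodes 112. The Cox6a2 interval sits inside the annotated span of Itgad, an integrin gene of the opposite strand, which held 65 UMIs against 98208 for Cox6a2. Whether the counting used strand is not given in the sources used here.

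Sums were made over 39148 microglia, 7716 to 10881 per mouse, with 72585320 to 91565159 UMIs per mouse and a median of 6278 to 7133 UMIs per cell. Pairs of libraries shared 31 to 46 cell barcodes. The microglial markers summed to between 27037 and 30586 CPM in the 4 mice. Prmt1 itself was read at 90.8 and 83.8 CPM in the PRMT1FL mice and at 70.4 and 70.6 CPM in the PRMT1Cx3cr1-KO mice, a log2 ratio of -0.38 (SE 0.07, edgeR quasi-likelihood test, Benjamini-Hochberg adjusted p = 0.0755). Haemoglobin and other erythroid transcripts set the genotypes apart, at 177 and 94.5 CPM in the PRMT1FL mice against 0.0616 and 0.0218 CPM in the PRMT1Cx3cr1-KO mice, with all 5 genes of that list lower in both PRMT1Cx3cr1-KO mice. Border macrophage markers summed to 31.6 and 31.2 CPM in the PRMT1FL mice and to 57.9 and 152 CPM in the PRMT1Cx3cr1-KO mice, with 5 of 7 genes higher in both. Each library came from a separate mouse. The p-values of edgeR rest on the spread between these 4 mice, with the spread of each gene moderated by that of the other genes tested. CPM are scaled to the microglial UMIs alone, whereas fitted log2 ratios also use TMM factors of 0.974 to 1.04, higher in the PRMT1Cx3cr1-KO mice, so a fitted ratio lies slightly below that of the printed CPM.

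Cox6a2 was read at 387 and 427 CPM in the PRMT1FL mice and at 237 and 153 CPM in the PRMT1Cx3cr1-KO mice. The groups did not overlap, the second PRMT1Cx3cr1-KO mouse was the lowest, and the 2 PRMT1Cx3cr1-KO mice lay further apart than the 2 PRMT1FL mice. The means were 407 ± 27.9 and 195 ± 59.7 CPM (SD, n = 2 each), a fitted log2 ratio of -1.13 (SE 0.21) or 0.457 of the PRMT1FL level. Of 13823 genes tested, 129 had a log2 ratio that low or lower, Cox6a2 included. The ratio was -0.83 without the second PRMT1Cx3cr1-KO mouse and -1.51 without the first.

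Cox6a2 is a muscle gene, so the muscle list was read in the same sums. Its 12 genes summed to between 42.7 and 47.6 CPM in the 4 mice, of which Tnni2, a fast troponin gene, gave 42.4 CPM on average, and Myh4, Myh6, Mb and Actc1 were at 0 in every mouse. Cox6a2 stood above that sum in each mouse, but the sum was mostly Tnni2, and the source of the Cox6a2 RNA was not tested. Erythroid transcripts differed between genotypes in the same direction as Cox6a2, and most of them sat in a single cluster of microglia. Without that cluster the log2 ratio of Cox6a2 was -1.17. Erythroid RNA remained in other clusters of the first PRMT1FL mouse, at up to 73.9 CPM, and its part in the result was not tested. The border macrophage list was higher in the PRMT1Cx3cr1-KO mice, and its part in the result was not tested.

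**Figure D1:**
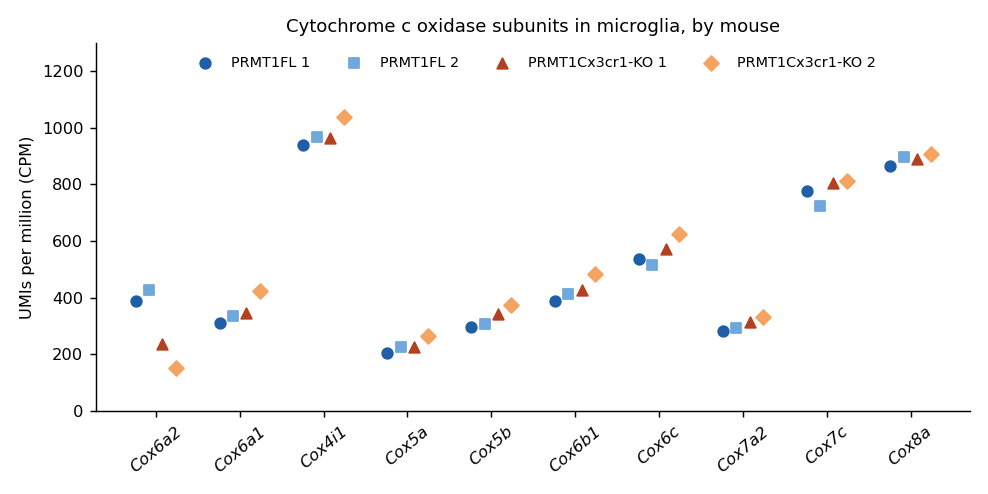
Level of each of the 10 subunit genes in microglia (vertical axis, CPM), with 1 point per mouse, blue for PRMT1FL and red or orange for PRMT1Cx3cr1-KO. Cox6a2 sits at 387 and 427 CPM in the PRMT1FL mice and at 237 and 153 CPM in the PRMT1Cx3cr1-KO mice, while no partner is lower in both PRMT1Cx3cr1-KO mice.

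None of the 9 partners passed the test between genotypes (edgeR quasi-likelihood test, adjusted p under 0.05), against 89 genes or 0.644% of all tested (66 higher in PRMT1Cx3cr1-KO, 0.477%, and 23 lower, 0.166%). At an unadjusted p under 0.05, 1 of the 9 passed, beside 19.8% of all genes. DESeq2 also called 0 of 9, whereas a limma fit of sums per mouse and cluster, with the cluster as a term, called 4 (Cox6a1, Cox5b, Cox6b1 and Cox6c, all higher in PRMT1Cx3cr1-KO). The share of all genes called was 5.61% by DESeq2 and 21.1% by the limma fit (10.3% higher and 10.7% lower), which treats several sums of a mouse with a shared correlation, so its p-values do not rest on the spread between mice alone. The median log2 ratio of the 9 was 0.11, beside -0.00 for all genes, of which the central part, from the 5th to the 95th percentile, ran from -0.52 to 0.61. In 7 of 9 partners both PRMT1Cx3cr1-KO mice lay above both PRMT1FL mice, a pattern that 38.7% of all genes showed, and in 0 of 9 both lay below, which 17.2% of all genes showed.

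Cox6a1, the other form of subunit VIa, was read at 310 and 335 CPM in the PRMT1FL mice and at 346 and 425 CPM in the PRMT1Cx3cr1-KO mice. The groups did not overlap, although the first PRMT1Cx3cr1-KO mouse stood close to the second PRMT1FL mouse. The log2 ratio was 0.18 (SE 0.10, edgeR with Benjamini-Hochberg adjusted p = 0.360). Without the first PRMT1Cx3cr1-KO mouse it was 0.30 and passed the test (edgeR, Benjamini-Hochberg adjusted p = 0.0173), in a setting that called 18.8% of all genes and 1 of the 9 partners.

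Cox5b, a subunit on the matrix face of the enzyme, had the lowest unadjusted p of the partners. It was read at 298 and 308 CPM in the PRMT1FL mice and at 344 and 373 CPM in the PRMT1Cx3cr1-KO mice. Those groups did not overlap, and the log2 ratio of 0.17 (SE 0.07) had an edgeR p of 0.0452 and a Benjamini-Hochberg adjusted p of 0.241. Cox5a, also on the matrix side, ran from 204 to 225 CPM in the PRMT1FL mice and from 225 to 265 CPM in the PRMT1Cx3cr1-KO mice, narrowly without overlap (log2 ratio 0.12).

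Cox4i1, the common form of subunit IV and one of the most abundant of the 10, stood at 938 and 966 CPM in the PRMT1FL mice and at 963 and 1037 CPM in the PRMT1Cx3cr1-KO mice. Here the groups overlapped and the log2 ratio was -0.00 (SE 0.07), with the sign depending on the setting. Cox8a, the common form of subunit VIII, also overlapped, at 864 and 897 CPM against 890 and 908 CPM, with a log2 ratio of -0.04.

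The remaining partners differed little between genotypes. Cox6b1, which bridges the monomers of the dimeric enzyme, ran from 387 to 413 CPM in the PRMT1FL mice and from 428 to 484 CPM in the PRMT1Cx3cr1-KO mice (log2 ratio 0.11). Cox6c, a small membrane subunit, ran from 516 to 537 CPM and from 572 to 625 CPM in the same order (log2 ratio 0.11). The small subunits Cox7a2 and Cox7c had log2 ratios of 0.09 and 0.03. All 4 of these genes were higher in both PRMT1Cx3cr1-KO mice, and none passed the test (edgeR, Benjamini-Hochberg adjusted p of 0.436 to 0.847).

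**Figure D2:**
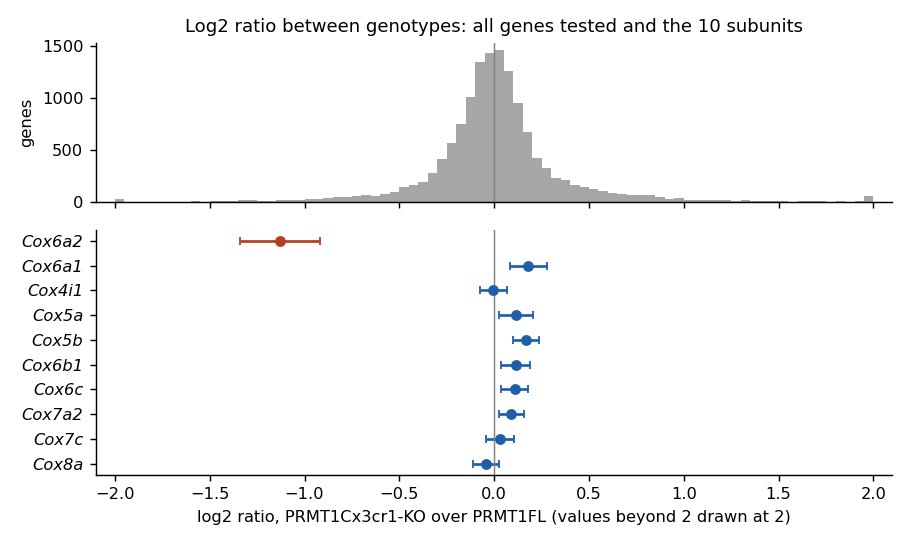
Top, number of genes (vertical axis) by log2 ratio of PRMT1Cx3cr1-KO over PRMT1FL for all 13823 genes tested. Bottom, the fitted log2 ratio of each of the 10 subunit genes with bars of 1 SE: Cox6a2 stands at -1.13 and the 9 partners between -0.04 and 0.18.

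The 9 partners together summed to 4597 and 4678 CPM in the PRMT1FL mice and to 4885 and 5262 CPM in the PRMT1Cx3cr1-KO mice. The 3 mitochondrially encoded core subunits summed to 9915 and 10250 CPM in the PRMT1FL mice and to 10081 and 9695 CPM in the PRMT1Cx3cr1-KO mice, which overlap. Of the UMIs of all 10 nuclear genes, Cox6a2 took 7.77% and 8.36% in the PRMT1FL mice and 4.63% and 2.82% in the PRMT1Cx3cr1-KO mice.

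Each UMI counts 1 molecule from its 3′ end, so levels of different genes were compared without dividing by length, although genes may differ in how well their ends are captured. Of all UMIs of subunit VIa, Cox6a2 held 55.5% (Wilson 95% interval 55.1 to 55.9) and 56.0% (55.6 to 56.4) in the PRMT1FL mice. In the PRMT1Cx3cr1-KO mice it held 40.7% (40.2 to 41.1) and 26.5% (26.1 to 26.9). The muscle-type form was thus the more abundant of the pair in both PRMT1FL mice and the less abundant in both PRMT1Cx3cr1-KO mice. The intervals cover counting error only. Between mice, the shares were 55.8 ± 0.362% and 33.6 ± 10.0% (SD, n = 2 each), a difference of -22.2 percentage points, given without a test since it rests on the contrast that chose Cox6a2. Expressed as a ratio, there were 1.25 and 1.27 UMIs of Cox6a2 per UMI of Cox6a1 in the PRMT1FL mice and 0.685 and 0.360 in the PRMT1Cx3cr1-KO mice.

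To see whether Cox6a2 varied between states of microglia, cells were clustered without 72 genes linked to cytochrome c oxidase or encoded in mitochondria. The 1245 genes that differed between genotypes were left out too. Nuclear genes of the other respiratory complexes were left out only where they were among the 1245. The clustering gave 8 microglial clusters, of which 7 had at least 50 cells in every mouse. They are called here by leading genes: haemoglobin with Ube2c, Gpnmb with Lgi2, Mki67 with Top2a (proliferating-like), Il12b with Il1b, Rsad2 with Ifit3 (interferon-like), Mmp12 with Itgax, and Il7r with P2ry12. The haemoglobin-led cluster held haemoglobin RNA in the PRMT1FL mice only, at 1457 and 938 CPM of the erythroid list against 0 in both PRMT1Cx3cr1-KO mice. Its 12 leading genes were 4 haemoglobin genes and 8 genes of the cell cycle, such as Ube2c, Rrm2 and Cdk1, and its mean level of the proliferation markers (log2 CPM 5.54) was second among the microglial clusters to that of the Mki67 cluster (8.13). Cluster names come from genes of the same cells, so levels across clusters are a description. Log2 ratios within a cluster are of the mean CPM of each genotype, without TMM factors.

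Cox6a2 was highest in the haemoglobin-led cluster, at 604 and 663 CPM in the PRMT1FL mice and 433 and 267 CPM in the PRMT1Cx3cr1-KO mice. The cluster of Gpnmb, a gene of phagocytic microglia, came next at 606 and 656 CPM against 340 and 164 CPM. Cox6a2 was also among the 12 leading genes of that cluster, although it had no part in forming it. In the proliferating-like cluster it was read at 453 and 586 CPM against 213 and 120 CPM, the widest separation between genotypes of the 7 clusters (log2 ratio -1.64).

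Intermediate levels were read in the cluster of Il12b and Il1b, genes of inflammatory signalling, at 389 and 464 CPM in the PRMT1FL mice and 225 and 128 CPM in the PRMT1Cx3cr1-KO mice. The interferon-like cluster stood at 347 and 373 CPM against 239 and 174 CPM. In the cluster of Mmp12 and Itgax the levels were lower and closer together, at 173 and 211 CPM against 150 and 149 CPM (log2 ratio -0.36). In these 6 clusters both PRMT1Cx3cr1-KO mice lay below both PRMT1FL mice.

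The cluster of Il7r and P2ry12, the latter a marker of resting microglia, had the lowest level and the opposite order. Cox6a2 was read there at 73.8 and 68.5 CPM in the PRMT1FL mice and at 104 CPM in each PRMT1Cx3cr1-KO mouse, a log2 ratio of 0.55. This cluster also had the highest mean level of a list of Gdf15, Il7r and Pdlim4. That level was 6.81 (log2 CPM), against 3.11 to 4.65 in the other microglial clusters. Over all microglia the list summed to 40.8 and 50.5 CPM in the PRMT1FL mice and to 131 and 172 CPM in the PRMT1Cx3cr1-KO mice. Whether the cells of this cluster were alike in both genotypes was not tested. The cluster of astrocyte and oligodendrocyte genes stood at 37.6 and 29.5 CPM in the PRMT1FL mice, below the Il7r cluster, and at 96.7 and 112 CPM in the PRMT1Cx3cr1-KO mice, near it, on 31, 16, 15 and 9 UMIs. With a finer resolution, another seed or no marked doublets, the log2 ratio of the lowest cluster was 0.52, 1.20 and 0.97. When no genes were left out of the clustering, 1 cluster kept the opposite order, at 52.4 and 77.2 CPM in the PRMT1FL mice against 155 and 166 CPM, and 84.2% of its cells were those of the Il7r cluster. The lowest cluster in that setting, with 54.0% of its cells from the Il7r cluster and 44.0% from the Mmp12 cluster, overlapped between genotypes, at 83.6 and 94.8 CPM against 84.7 and 69.0 CPM (log2 ratio -0.22).

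The mean level over the 4 mice ran from 492 CPM in the haemoglobin-led cluster to 87.7 CPM in the Il7r cluster, a ratio of 5.61. The ratio was 8.19 and 9.67 in the PRMT1FL mice and 4.16 and 2.56 in the PRMT1Cx3cr1-KO mice. Between neighbours in that order, the Gpnmb cluster exceeded the proliferating-like cluster in 4 of 4 mice (log2 difference 0.43 ± 0.21, SD). The interferon-like cluster exceeded the Mmp12 cluster by 0.68 ± 0.33, and the Mmp12 cluster exceeded the Il7r cluster by 0.97 ± 0.55, both in 4 of 4 mice. The other 3 neighbouring pairs did not differ beyond their spread over mice: the haemoglobin-led and Gpnmb clusters (0.27 ± 0.33), the proliferating-like and Il12b clusters (0.10 ± 0.21), and the Il12b and interferon-like clusters (-0.01 ± 0.33). An exact sign-flip permutation test over 4 mice has a smallest two-sided p of about 0.13, so no step in this order could pass a threshold of 0.05.

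**Figure D3:**
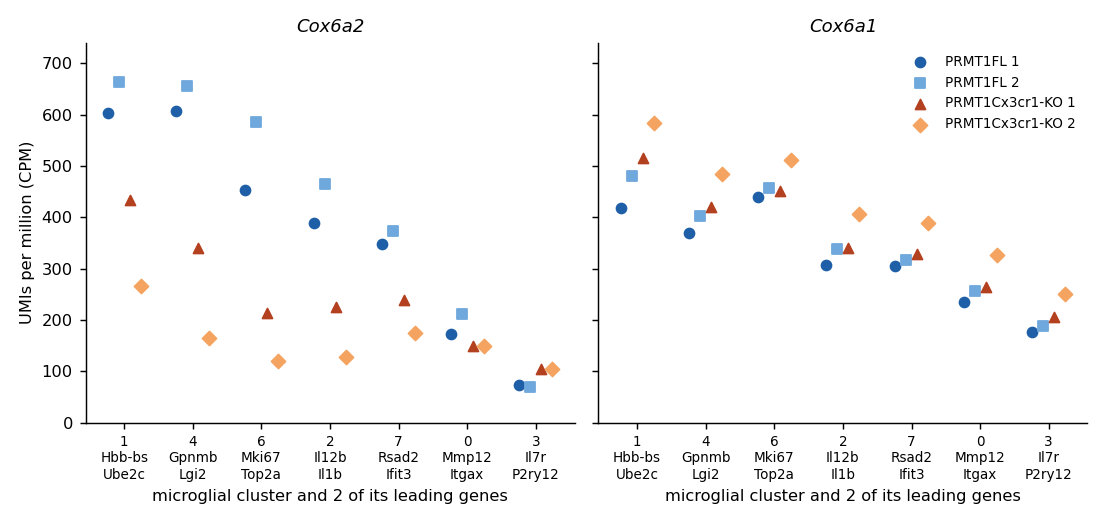
Level of Cox6a2 (left) and Cox6a1 (right) in CPM (vertical axis) in the 7 microglial clusters, named by 2 leading genes, with 1 point per mouse. Cox6a2 runs from 663 CPM down to 68.5 CPM and separates the genotypes widely in the clusters on the left, while Cox6a1 falls less steeply and is mostly higher in the PRMT1Cx3cr1-KO mice.

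The ubiquitous form spanned a narrower range, in nearly the same order of clusters, with the proliferating-like cluster ahead of the Gpnmb cluster. Cox6a1 was highest in the haemoglobin-led cluster, at 419 and 480 CPM in the PRMT1FL mice and 516 and 584 CPM in the PRMT1Cx3cr1-KO mice, and lowest in the Il7r cluster, at 176 and 187 CPM against 205 and 250 CPM. Its highest mean was 2.44 times its lowest. Both PRMT1Cx3cr1-KO mice lay above both PRMT1FL mice in 6 of 7 clusters, and in the proliferating-like cluster the groups overlapped, at 439 and 457 CPM against 452 and 511 CPM.

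Every one of the 10 genes was highest in the haemoglobin-led cluster and lowest in the Il7r cluster, which had a median of 4445 and 3343 UMIs per cell. The share of all genes with this pattern is not given. For the 8 genes other than the VIa pair the highest mean was 2.25 to 2.47 times the lowest, so Cox6a2 spanned the widest range of the 10. Cox5b, Cox6b1, Cox6c and Cox7c were higher in both PRMT1Cx3cr1-KO mice in 7 of 7 clusters. Cox7a2 was so in 6, Cox4i1 in 5, Cox5a in 3 and Cox8a in 3, and Cox8a was lower in both in 1. For these counts and that of Cox6a1, the share of all genes within clusters is not given. In the sums over all microglia, 38.7% of all genes were higher in both PRMT1Cx3cr1-KO mice and 17.2% were lower in both. Cluster levels carry no TMM factors, which were higher in the PRMT1Cx3cr1-KO mice, so the counts lean toward higher. Cox7c reached 7 of 7 with a fitted log2 ratio of 0.03. The clusters come from the same mice, so the counts are a description.

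The share of subunit VIa UMIs held by Cox6a2 put these 2 patterns together. In the Gpnmb cluster it was 62.1% and 62.0% in the PRMT1FL mice and 44.7% and 25.3% in the PRMT1Cx3cr1-KO mice. In the proliferating-like cluster it was 50.8% and 56.1% against 32.1% and 19.1%. In the Il7r cluster it was 29.5% and 26.8% against 33.7% and 29.5%. Across the 7 clusters the PRMT1FL shares thus ran from 26.8% to 62.1%, those of the first PRMT1Cx3cr1-KO mouse from 32.1% to 45.7%, and those of the second from 19.1% to 31.4%.

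**Figure D4:**
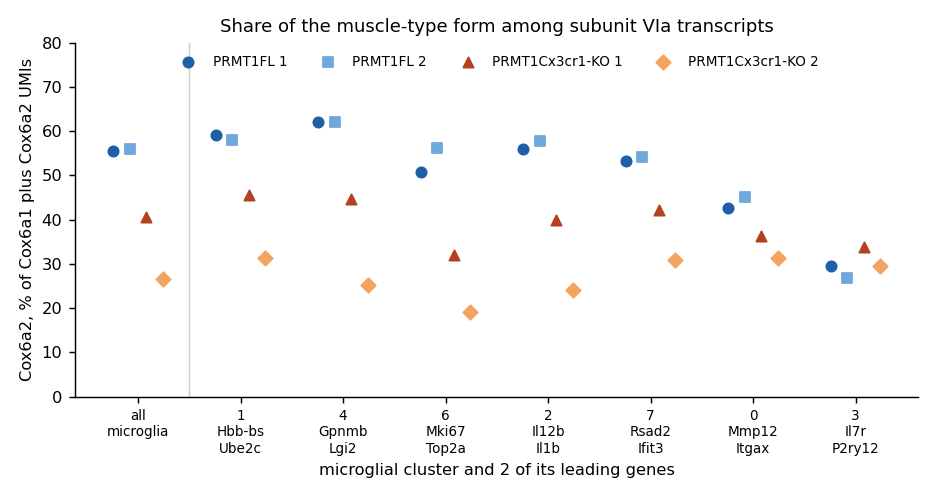
Cox6a2 as a percentage of the UMIs of Cox6a1 plus Cox6a2 (vertical axis) in all microglia and in the 7 clusters, with 1 point per mouse. The PRMT1FL mice lie above the PRMT1Cx3cr1-KO mice in all microglia, at 55.5% and 56.0% against 40.7% and 26.5%, and in every cluster but the Il7r cluster.

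The clusters gave unequal shares of the Cox6a2 UMIs. The Gpnmb cluster held 13.6% and 13.4% of microglia in the PRMT1FL mice and 12.4% and 17.9% in the PRMT1Cx3cr1-KO mice, but 34.4% and 32.7% of the Cox6a2 UMIs in the PRMT1FL mice and 23.8% and 27.0% in the PRMT1Cx3cr1-KO mice. With the cluster as a term in the fit, the log2 ratio of Cox6a2 was -1.01. An eighth cluster, led by Ms4a7, Clec12a and Cd38, held 41 and 10 cells in the PRMT1FL mice and 84 and 481 cells in the PRMT1Cx3cr1-KO mice. Cox6a2 stood there at 94.3 and 60.4 CPM in the PRMT1Cx3cr1-KO mice, or 32.6% and 16.8% of subunit VIa UMIs, and no PRMT1FL level is given for so few cells.

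Outside microglia, Cox6a2 was read at 296, 224, 252 and 129 CPM in the cluster of border macrophage genes, in the order PRMT1FL then PRMT1Cx3cr1-KO, and the groups overlapped. In that cluster 20.1% of the cells were marked as doublets, and the part of microglial RNA in these levels was not tested. The monocyte-like cluster stood far lower, at 36.1, 33.8, 25.1 and 69.0 CPM. A cluster led by H2-Eb1, Clec12a and Ms4a7, with 58.8% of its cells marked as doublets, did not overlap between genotypes. Cox6a2 was read there at 287 and 241 CPM in the PRMT1FL mice and at 116 and 124 CPM in the PRMT1Cx3cr1-KO mice. A small cluster led by Ccl8 and Cbr2 stood at 549 CPM in the first PRMT1FL mouse against 228 and 336 CPM, on 20, 17 and 20 UMIs.

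Within clusters, Cox6a2 was also spread unevenly over single cells. A UMI of Cox6a2 was found in 52.3% and 53.1% of microglia in the PRMT1FL mice and in 48.8% and 43.6% in the PRMT1Cx3cr1-KO mice. After each cell was thinned to 2000 UMIs, which kept 7207 to 9993 cells per mouse, the shares were 31.3% and 32.5% against 26.4% and 20.5%. The share was 5.86% in the cluster of astrocyte and oligodendrocyte genes and 6.57% in the monocyte-like cluster at the same depth, and 9.90% and 10.5% before thinning, with medians of 2942 and 4030 UMIs per cell. Both genotypes of microglia were thus above these clusters, whose shares pool the 4 mice. The cluster of astrocyte and oligodendrocyte genes held 199 and 137 cells of the PRMT1FL mice and 47 and 21 of the PRMT1Cx3cr1-KO mice. In the cluster of border macrophage genes the pooled share at that depth was 19.7%, with marked doublets included, close to the second PRMT1Cx3cr1-KO mouse. Cox6a1 was found in 41.4% and 43.6% of thinned PRMT1FL microglia, where its mean of 0.572 and 0.615 UMIs per cell was a little under the 0.622 and 0.692 of Cox6a2. It was found in 44.6% and 51.9% of thinned PRMT1Cx3cr1-KO microglia, where its mean was 0.649 and 0.799 UMIs per cell against 0.437 and 0.311 for Cox6a2.

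In thinned cells the variance of Cox6a2 exceeded its mean by a factor of 2.59 and 2.90 in the PRMT1FL mice and of 2.13 and 1.89 in the PRMT1Cx3cr1-KO mice, where independent counting (a Poisson distribution) gives 1. The same factor was 1.06 to 1.28 for the 9 partners over the 4 mice. Taken within clusters, the factor for Cox6a2 was still 2.35, 2.61, 2.03 and 1.84 in the same order of mice, so differences between clusters made up a minor part of it. The variance above Poisson, divided by the squared mean, was 2.56 and 2.75 in the PRMT1FL mice and 2.58 and 2.87 in the PRMT1Cx3cr1-KO mice, against 0.105 to 0.318 for the partners. On this scale, which divides out the mean, the genotypes overlapped.

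In the PRMT1FL mice 68.7% and 67.5% of thinned cells had no Cox6a2 UMI, where a Poisson distribution of the same mean gives 53.7% and 50.1%. Cells with 3 or more UMIs made up 7.12% and 8.60% in the PRMT1FL mice and 3.90% and 2.25% in the PRMT1Cx3cr1-KO mice. In the PRMT1FL mice those high cells were most frequent in the Gpnmb cluster, at 16.4% and 17.2%. The haemoglobin-led cluster, at 14.4% and 15.2%, and the proliferating-like cluster, at 10.8% and 15.5%, came next, in an order that differed between the mice. In the PRMT1Cx3cr1-KO mice the haemoglobin-led cluster was highest, at 9.67% and 4.78%, above the Gpnmb cluster at 6.96% and 2.51%. The interferon-like cluster, at 3.51% and 2.86%, exceeded the Gpnmb cluster in the second of these mice. The proliferating-like cluster stood at 2.26% and 0.607% there. In the Il7r cluster they stayed at 0.335% to 0.752% in the 4 mice.

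**Figure D5:**
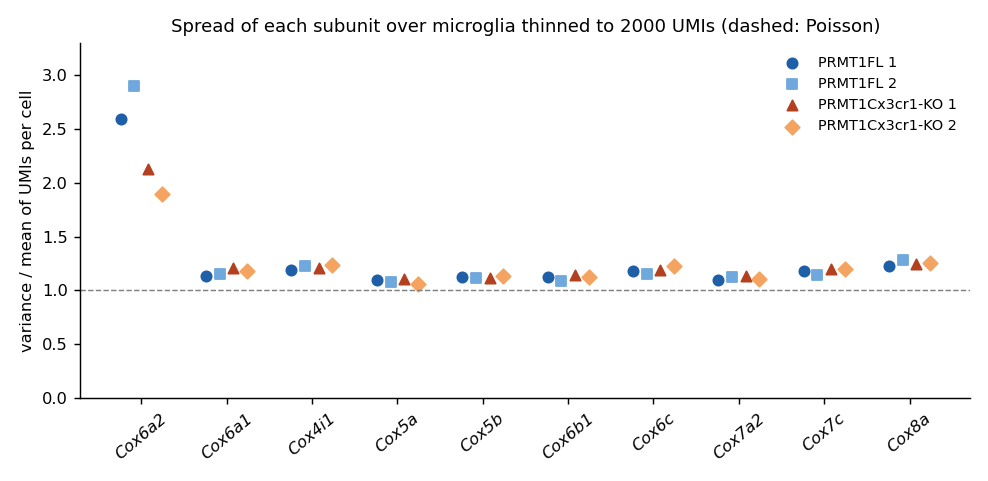
Variance divided by mean of the UMIs per cell (vertical axis) for each of the 10 genes in microglia thinned to 2000 UMIs, with 1 point per mouse and a dashed line at the Poisson value of 1. Cox6a2 lies between 1.89 and 2.90 and the 9 partners between 1.06 and 1.28.

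Cox6a2 also varied with the total UMIs of a cell. From cells under 3000 UMIs to cells with 12000 or more, it went from 192 to 504 CPM and from 246 to 541 CPM in the PRMT1FL mice. The same step was from 159 to 262 CPM in the first PRMT1Cx3cr1-KO mouse and from 113 to 148 CPM in the second, whose highest level, 171 CPM, was in cells of 3000 to 6000 UMIs. Cox6a1 was higher in the deepest cells in all 4 mice, going from 225 to 351, 219 to 378, 232 to 380 and 258 to 453 CPM. Depth also differed between clusters, with a median of 11640 UMIs per cell in the Gpnmb cluster, 6348 in the Mmp12 cluster and 3343 in the Il7r cluster. The haemoglobin-led cluster, where Cox6a2 was highest, had only 4445. How far the trend with depth follows the clusters, and whether more UMIs per cell reflect more RNA or better capture, was not tested.

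Over the 28 sums of 7 clusters and 4 mice, and after the level of each mouse was removed, the genes whose pattern was most like that of Cox6a2 were Syngr1 (r = 0.953), Aldoa (0.952), Ctsd (0.951), Gsto1 (0.950), Pkm (0.948), Gng12 (0.947), Akr1a1 (0.944) and Mif (0.942), out of 7328 genes with a mean of at least 10 CPM. Aldoa and Pkm encode enzymes of glycolysis and Ctsd a lysosomal protease. The nearest gene of the enzyme itself was mt-Co1, which ranked 45th (r = 0.904), followed by Cox4i1 at 81st (0.879) and Cox6a1 at 102nd (0.872). These correlations are a description, since the 28 sums share mice, cells and depth, and clusters of the same mouse are not independent.

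The other genes of the pathway were read from lists. Of 6 other subunits, none passed the test (edgeR, adjusted p under 0.05) and 2 had an unadjusted p under 0.05. Of all genes tested, 0.644% passed and 19.8% had such an unadjusted p, and DESeq2 called 5.61%. Ndufa4, now counted as a subunit of the enzyme, had the highest log2 ratio, 0.37, at 206 and 237 CPM in the PRMT1FL mice and 265 and 339 CPM in the PRMT1Cx3cr1-KO mice. Cox7a2l had the lowest, -0.20, at 416 and 384 CPM against 363 and 372 CPM. None of the 6 overlapped between genotypes: 3 were higher and 3 lower in both PRMT1Cx3cr1-KO mice. Of all genes, 38.7% were higher and 17.2% lower in both. The core subunits mt-Co1, mt-Co2 and mt-Co3 had log2 ratios of -0.16, 0.02 and -0.13. DESeq2 also called 0 of 6, while the limma fit with the cluster as a term, which called 21.1% of all genes, called 3, Ndufa4 as higher and Cox7a2l and mt-Co1 as lower in PRMT1Cx3cr1-KO.

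Among the 6 further tissue forms, Cox6a2 had no counterpart of like level. Cox4i2 held 267 UMIs in the microglial sums, Cox6b2 held 694 and Cox7a1 held 763, while Cox8b held 3 and Cox7b2 and Cox8c held 0. The 3 genes that could be tested had log2 ratios of 0.14, 0.73 and 0.34 in that order, with none called by edgeR or DESeq2 and 1 at an unadjusted edgeR p under 0.05. Among all genes the shares were 0.644% called by edgeR, 5.61% called by DESeq2 and 19.8% at such an unadjusted p. The limma fit with the cluster as a term called Cox6b2 as higher, beside 10.3% of all genes. Cox7a1, like Cox6a2 a form of heart and muscle, was read at 2.05 and 1.80 CPM in the PRMT1FL mice and at 1.97 and 3.19 CPM in the PRMT1Cx3cr1-KO mice, which overlap.

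Of 27 genes of assembly and copper delivery, 26 were tested, none was called and 3 had an unadjusted p under 0.05. For all genes these shares were 0.644% and 19.8% (edgeR). The log2 ratios of the 26 had a median of -0.00. They ran from -0.26 for Cox18, which helps insert mt-Co2 into the membrane, to 0.26 for Cmc2. Pet117 had 0 UMIs. Of 10 tested regulators of respiratory genes none was called, and their log2 ratios ran from -0.34 for the coactivator Ppargc1b to 0.10 for Gabpb1, with a median of 0.01. Ppargc1a held 3 UMIs. Cycs, which encodes cytochrome c, had a log2 ratio of 0.11, and its testis form Cyct held 0 UMIs. DESeq2 called none of these genes either, beside 5.61% of all genes. The limma fit with the cluster as a term called 3 of the 26 assembly genes (Pet100 higher, Surf1 and Cox18 lower), a smaller share than the 21.1% of all genes, and 0 of the regulators and of Cycs. Among the regulators 1 gene had an unadjusted edgeR p under 0.05, and Cycs did not.

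Because the partners were all highest and all lowest in the same clusters, the bases before their start sites were searched for 4 known promoter motifs, on both strands. How many of all genes had the same highest and lowest clusters is not given. RefSeq promoters (GRCm38.p6) were at hand for 7 of the 9 partners, but not for Cox4i1, Cox6c or Cox6a2, so the motifs do not compare Cox6a2 with its partners. In the 250 bases before the start, the ETS core CGGAAG, bound by factors such as GABP, was found in 3 of 7 (Cox6a1, Cox6b1 and Cox5a), beside 13.8% of 27025 promoters of the same length. The motif of NRF1, searched by its consensus with 1 free position, was found in Cox6a1 only, beside 3.86% of all, and CCAAT in Cox6a1, Cox6b1 and Cox8a, beside 34.5%. None of the 7 held TATAAA, which 13% of all promoters held. A match is not a bound site, and no factor was measured here. The last 120 bases before the RefSeq start are shown for the 2 partners with both an ETS core and a CCAAT box, on the minus strand at chr5:115348959-115349078 (Cox6a1) and chr7:30626115-30626234 (Cox6b1), with the ETS core and, in Cox6a1, the NRF1 motif in capitals. In these stretches no match overlapped another. GENCODE places both starts further upstream, so that the last 23 bases of the Cox6a1 stretch and the last 37 of the Cox6b1 stretch, each with an ETS core, lie inside the annotated gene. The same held for the last 109 bases of the Cox7c window, the last 38 of Cox5b and the last 25 of Cox7a2.
Cox6a1: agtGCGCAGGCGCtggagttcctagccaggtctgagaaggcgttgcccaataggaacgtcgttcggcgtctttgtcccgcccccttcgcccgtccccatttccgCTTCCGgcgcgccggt
Cox6b1: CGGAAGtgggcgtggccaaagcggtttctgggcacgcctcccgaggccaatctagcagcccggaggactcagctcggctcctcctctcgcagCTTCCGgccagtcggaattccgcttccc

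Within 200 kb of Cox6a2, 24 genes are annotated, of which 14 were in the count tables and 12 passed the filter on low counts, Cox6a2 included. None of the other 11 was called (edgeR, adjusted p under 0.05) and 2 had an unadjusted p under 0.05, beside 0.644% and 19.8% of all genes. DESeq2 called none of the 8 it gave an adjusted p, and the limma fit with the cluster as a term called 4 of 8 as lower (Itgam, Itgax, Armc5 and Rgs10), beside 10.7% of all genes. Itgax, the integrin gene that encodes CD11c and ends 55.7 kb from Cox6a2, was read at 129 and 134 CPM in the PRMT1FL mice and at 64.3 and 29.7 CPM in the PRMT1Cx3cr1-KO mice. The groups did not overlap, and the log2 ratio was -1.55 (SE 0.34, edgeR with Benjamini-Hochberg adjusted p = 0.0899). Over all microglia, 17.2% of all genes were likewise lower in both PRMT1Cx3cr1-KO mice. Itgax was lower in both in 7 of 7 clusters, which come from the same mice and so repeat 1 contrast. The share of all genes within clusters is not given. The order of clusters of Itgax was not that of Cox6a2 (r = -0.02 over the 28 sums, a description). Itgam, the integrin gene that encodes CD11b, which was used in the sort, had a log2 ratio of -0.18.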

How the data were processed

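Brain cells from 4 mice (2 PRMT1FL, 2 PRMT1Cx3cr1-KO) were profiled with a droplet 3′ kit. Per the methods and labels, the authors used Cell Ranger 3.1.0 (genome mm10), Seurat 3.2.0 and Scanpy 1.5.2. The deposited matrices hold raw UMI counts per gene and cell. Barcodes were kept when they held between 200 and 6000 genes and no more than 10% of UMIs from mitochondrial genes, leaving 8170 to 11427 per library of 76943248 to 99559644 UMIs. Cells were clustered (scanpy 1.11.5, igraph 0.11.9, 2000 variable genes, 20 components, 15 neighbours, resolution 0.4). Left out were 1245 genes that differed between genotypes (DESeq2, adjusted p under 0.05, sums over all cells) and 72 respiratory genes. The 72 were those of cytochrome c oxidase, its assembly, electron donor and regulators, and of the mitochondrial genome. Likely doublets (6.54% to 9.15% of the filtered cells of a mouse), marked by likeness to simulated pairs, were kept in the sums where they lay in microglial clusters. Clusters were called microglial from marker lists.

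UMI counts were summed per mouse over microglial clusters and tested with edgeR 4.0.16 (quasi-likelihood, TMM, filterByExpr, Benjamini-Hochberg over 13823 genes). Alternatives used DESeq2 1.42.0, limma 3.58.1, other filters, other cells and each mouse left out. Shares of cells were compared after thinning to 2000 or 1000 UMIs. The edgeR steps were tested on simulated data. Replicate numbers did not pair the mice (correlation of deviations -0.0239). Sequences came from GENCODE M21 and RefSeq. No protein sequence was used here.

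The genes named are the 10 subunits, the members of fixed lists with the highest and lowest log2 ratio, the 8 genes most like Cox6a2, and neighbours within 200 kb. These members and lists were chosen with earlier results of these data known. Itgax and Itgam, among the neighbours, were singled out after their values were seen.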

Additional observations from a re-analysis of the deposited data

Results flagged for a closer look

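Cox6a2 differed in direction between clusters: in 6 of them both PRMT1Cx3cr1-KO mice lay below both PRMT1FL mice, and in the Il7r cluster both lay above, a difference that was not tested. The log2 ratios were -1.64 in the proliferating-like cluster, -1.32 in the Gpnmb cluster, -1.27 in the Il12b cluster, -0.86 in the haemoglobin-led cluster, -0.80 in the interferon-like cluster, -0.36 in the Mmp12 cluster and 0.55 in the Il7r cluster. With a finer resolution, 8 of 10 clusters were lower and 2 were higher in both PRMT1Cx3cr1-KO mice. Another seed again gave 6 lower and 1 higher. Without marked doublets 5 were lower, 1 was higher and 1 overlapped. When no genes were left out of the clustering, 6 were lower, 1 was higher and 1 overlapped. The cells of the Il7r cluster then fell mostly into 2 clusters, and the opposite order held in 1 of them and not in the other. In the Il7r cluster of the main clustering, every partner but Cox8a was also higher in both PRMT1Cx3cr1-KO mice. Their log2 ratios ran from 0.13 (Cox4i1) to 0.37 (Cox5a), below the 0.55 of Cox6a2. Most of these partners were higher in both mice in most other clusters too. The share of all genes that were higher in both within this cluster is not given. The share of subunit VIa UMIs held by Cox6a2 overlapped there, at 29.5% and 26.8% in the PRMT1FL mice against 33.7% and 29.5%.

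Cox8a also had clusters of both directions, at a much smaller size and not tested. Cluster ratios carry no TMM factors, which were higher in the PRMT1Cx3cr1-KO mice, so they lean toward higher. The fitted log2 ratio of Cox8a over all microglia, with these factors, was -0.04. Its cluster log2 ratios were 0.06 in the Il12b cluster, 0.05 in the Gpnmb cluster and 0.09 in the interferon-like cluster, where both PRMT1Cx3cr1-KO mice were higher. In the Il7r cluster, where both were lower, the ratio was -0.07.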

How the results depend on the processing

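The lower level of Cox6a2 kept its direction in all 13 alternatives, from -1.51 (without the first PRMT1Cx3cr1-KO mouse) to -0.83 (without the second). The difference in its share of subunit VIa ran from -29.3 to -15.1 percentage points when a mouse was left out. Cox6a2 was chosen for being lower in these same mice, so a kept direction was built in and is no support. The count of genes called, 89, was the least stable value: 1621 with no filter on low counts, 749 with all cells, 58 without marked doublets, 242 with the replicate block, 730 with DESeq2, 2608 with the cluster as a term, and 4 to 2669 when a mouse was left out. Partners called were 0 of 9, but 4 with the cluster as a term, a fit with several sums per mouse (limma, Benjamini-Hochberg adjusted p 0.00557 for Cox6a1, 0.000795 for Cox5b, 0.0159 for Cox6b1 and 0.00465 for Cox6c), and 0 to 1 when a mouse was left out. With the replicate block 0 partners were called. A lone mouse left in a genotype was assumed to vary like the pair in the other. Of 117 log2 ratios of partners, 109 kept their direction. Cox4i1 turned from -0.00 to 0.00027 with DESeq2 size factors, 0.0022 with no filter, 0.034 with all cells, 0.00028 with DESeq2 and 0.028 with the cluster as a term, and ran from -0.032 to 0.029 when a mouse was left out. Cox7c ran from -0.017 to 0.080 when a mouse was left out. The cause was not tested. The alternative without the haemoglobin-led cluster was chosen after seeing the data. At 2 mice against 2, the smallest exact two-sided permutation p is about 0.33. The UMI depth of a cell limits what a cell without a Cox6a2 UMI can show.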
